A study of Mus musculus with 4 samples.

Results

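The data describe 48 DNA damage repair genes, all of those named in a fixed membership list that are found among the 20555 genes of the deposited table, where each has 1 entry. They were chosen by symbol and cover homologous recombination (11 genes), the Fanconi anaemia pathway (9), mismatch repair and resection (3), base excision and single-strand break repair (7), nucleotide excision repair (3), end joining (6), break sensors and checkpoint kinases (7) and RecQ helicases (2). The list was drawn up with earlier results of these data known, so its counts are a description. All 48 passed the level filter of at least 10 scaled counts in at least 2 libraries. RNA came from bulk mouse mammary tumours driven by PyMT, the polyoma virus middle T antigen, with 2 libraries in each of 2 groups. Control-PyMT is labelled with the genotype PyMT and no other allele. MYC-PyMT carries PyMT with S100a8-cre and Rosa26-LSL-MYC, a MYC allele behind a stop cassette that Cre removes. S100a8 is best known from neutrophils and related myeloid cells, so the allele limits MYC-PyMT as a model to cells that have used that driver. The labels give no age of the mice. They do not say that replicates are separate mice, so the p-values describe only the spread from library to library, possibly technical.

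Cells mend DNA by routes matched to the lesion. Base excision repair removes damaged or misplaced bases, mismatch repair corrects replication errors, and nucleotide excision repair cuts out bulky adducts. Broken chromosomes are rejoined directly by end joining or copied from the sister chromatid by homologous recombination, which works in S and G2 phase, and the Fanconi anaemia proteins unhook crosslinks between the strands. In mammary tissue the recombination genes Brca1, Brca2 and Palb2 are known as tumour suppressors. Many of these genes are transcribed most in dividing cells, where replication forks need their products.

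Of the 48 repair genes, 28 were higher in MYC-PyMT, 2 were lower and 18 did not pass the test (limma, Benjamini-Hochberg adjusted p under 0.05 over 16725 genes). Over all genes tested, 23.3% were called higher and 24.6% lower. The median change of the repair genes was 0.64 on the log2 scale, against -0.02 for all genes tested. Both MYC-PyMT libraries stood above both Control-PyMT libraries for 38 repair genes, where 37.0% of all genes tested did so. In 4 repair genes both MYC-PyMT libraries stood below, where 38.7% of all genes tested did so. Changes are log2 differences of scaled counts plus 1, which understate changes of low genes, and levels are in scaled counts (read counts divided by a size factor) unless given per kilobase. Leaving out 1 library lowered the number of higher repair genes to 21 (without Control-PyMT replicate 1), 16 (without Control-PyMT replicate 2), 16 (without MYC-PyMT replicate 1) or 17 (without MYC-PyMT replicate 2), and 14 genes were called higher in each of these fits. Fewer of all genes tested were called higher in each of these fits too, so the drop is not particular to repair genes. The 23.3% is therefore not the background of these fits. Their median change was 0.55 to 0.79 for the repair genes, against -0.035 to -0.003 for all genes tested. Such a fit sets 1 library against 2. Its spread comes from the remaining pair and from limma's pooling over genes, and the lone library is assumed to vary alike. In the same libraries all 25 genes of a replication and cell cycle list, chosen with earlier results of these data known, were higher. Summed markers of leukocytes, T cells, B cells, luminal and myoepithelial cells and keratinocytes stood lower in both MYC-PyMT libraries than in both controls. Those of endothelium and adipocytes stood higher, and those of macrophages, neutrophils and fibroblasts overlapped. The part of the listed genes and of cell composition in the changes of the repair genes was not tested. In bulk tumours fewer cells of a type and less RNA per cell cannot be told apart.

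**Figure D1:**
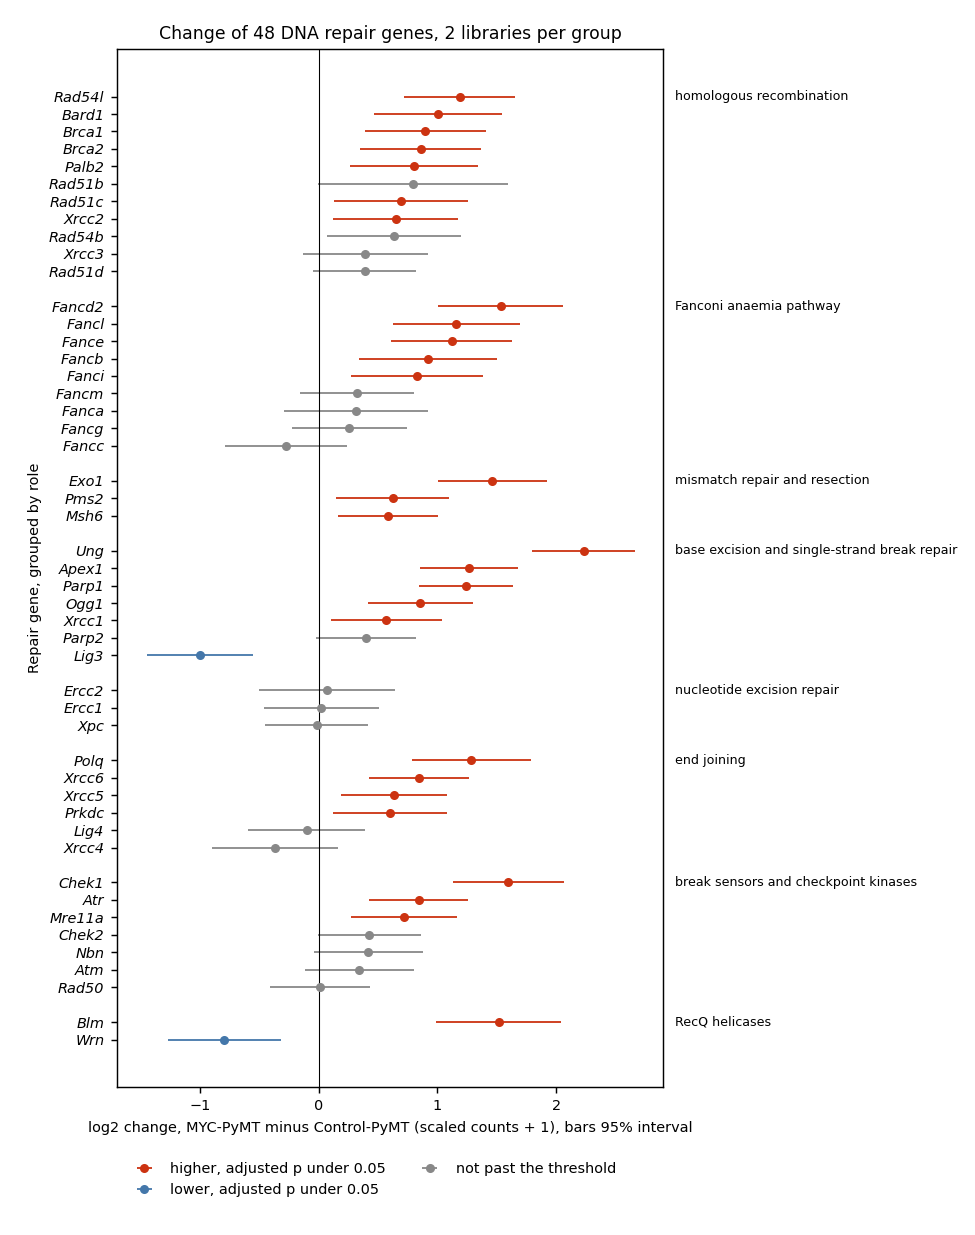
Change of each of the 48 repair genes on the log2 scale of scaled counts plus 1 (horizontal axis), with its 95% interval as a bar, grouped by role (vertical axis), from 2 libraries per group. Red marks the 28 genes called higher in MYC-PyMT, blue the 2 called lower (Lig3 and Wrn), and grey the 18 that did not pass. Ung lies farthest to the right.

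Stretches before the starts of 6 repair genes are shown because their letters and neighbours are referred to below. RefSeq windows of 250 bases before to 50 after the start (GRCm38.p6) were found for 38 of the 48 genes, and 34 of these had a single window. Printed stretches lie before the start, run 5′ to 3′ along the gene, and stop where an annotated protein-coding exon begins. Capitals mark CACGTG, the letters that MYC and its partner MAX bind, or GGCGGGAA, letters like those bound by E2F factors. Apex1 (chr14:50924894-50924948, plus strand), Parp1 (chr1:180568641-180568890, plus strand), Parp2 (chr14:50807733-50807840, plus strand) and Lig3 (chr11:82780859-82781107, plus strand) hold CACGTG. Fancb (chrX:164980376-164980591, plus strand) holds GGCGGGAA, and Brca1 (chr11:101551956-101552148, minus strand) holds neither in the stretch that separates it from its neighbour Nbr1.
Apex1: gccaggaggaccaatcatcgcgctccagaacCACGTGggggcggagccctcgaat
Parp1: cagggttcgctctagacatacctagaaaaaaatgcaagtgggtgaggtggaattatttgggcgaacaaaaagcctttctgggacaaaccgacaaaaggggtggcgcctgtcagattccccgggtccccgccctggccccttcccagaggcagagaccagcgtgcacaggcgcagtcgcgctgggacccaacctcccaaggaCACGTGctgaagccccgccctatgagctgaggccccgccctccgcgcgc
Parp2: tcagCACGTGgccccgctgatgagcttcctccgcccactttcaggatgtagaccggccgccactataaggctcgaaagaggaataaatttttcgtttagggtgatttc
Lig3: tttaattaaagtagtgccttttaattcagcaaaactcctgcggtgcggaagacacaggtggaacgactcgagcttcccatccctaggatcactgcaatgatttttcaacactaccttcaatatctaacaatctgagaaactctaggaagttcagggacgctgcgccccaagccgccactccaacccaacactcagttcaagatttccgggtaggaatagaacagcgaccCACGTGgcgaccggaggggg
Fancb: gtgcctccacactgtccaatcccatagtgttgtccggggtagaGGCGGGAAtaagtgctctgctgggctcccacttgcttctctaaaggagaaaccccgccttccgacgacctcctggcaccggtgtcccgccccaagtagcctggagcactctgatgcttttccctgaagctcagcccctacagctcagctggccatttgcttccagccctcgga
Brca1: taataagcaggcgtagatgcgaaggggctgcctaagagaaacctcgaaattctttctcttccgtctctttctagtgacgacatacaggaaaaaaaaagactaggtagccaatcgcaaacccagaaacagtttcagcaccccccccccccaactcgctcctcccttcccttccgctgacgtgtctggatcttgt

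Motifs were searched on both strands and counted only in genes with a single window, also in the sets compared. CACGTG, equal to its own reverse complement, was found in 5 of 34 repair gene windows (14.7%). It was found in 9.66% of the 9242 such windows of genes tested and in 7.12% of all 22862 such windows. The 5 genes moved in different ways. Apex1, Parp1 and Xrcc5 were called higher, Parp2 was not called and Lig3 was called lower. Apex1 held it 3 times, with first bases at -24, 0 and 21 from the start, counted as 0, and the first of these lies in the stretch printed. GGCGGGAA was found in 5 of 34 (14.7%, against 4.20% of windows of genes tested and 2.25% of all). These were Chek1, Fancb, Fancm, Msh6 and Polq, of which 4 were called higher and Fancm was not. Of all 34 repair genes with a single window, 22 were called higher, so these counts link neither motif to the calls. CCAAT, the box bound by NF-Y, was found in 20 of 34 (58.8%, against 38.3% and 38.2%). TTTGAA was found in 2 (5.88%, against 12.3% and 18.5%), and TTTGGCGC and TTTCGCGC in none of the 34, where 0.974% and 0.573% of windows of genes tested and 0.503% and 0.328% of all held them. These are matches of letters only, and no motif searched contains another.

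Base excision repair held the largest single change. Ung, the glycosylase that removes uracil from DNA (ENSMUSG00000029591.14, chromosome 5, 114130386 to 114139323, GRCm38), stood at 426 and 428 in the Control-PyMT pair against 1943 and 2078 scaled counts in the MYC-PyMT pair. The libraries of each group lay close together and the groups were far apart, a 4.71-fold rise (log2 2.23, SE 0.19, limma adjusted p = 3.07e-05). Apex1, the endonuclease that cuts at the base-free site a glycosylase leaves, rose from 1005 and 941 to 2285 and 2409 scaled counts (log2 1.27, SE 0.18, limma adjusted p = 0.000454). Parp1, which marks strand breaks with poly(ADP-ribose), rose from 2882 and 2895 to 7159 and 6496 scaled counts (log2 1.24, SE 0.18, limma adjusted p = 0.000413). Ogg1, the glycosylase for oxidised guanine, had 578 and 628 in the Control-PyMT pair against 1082 and 1100.0 scaled counts in the MYC-PyMT pair and also rose (log2 0.86, SE 0.20, limma adjusted p = 0.00604). These 4 calls were made in each fit that omitted 1 library.

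At the later steps of the same route 1 gene was lower. Lig3, the ligase that seals the nick and the only DNA ligase of mitochondria (ENSMUSG00000020697.16, chromosome 11, 82781108 to 82804274), stood at 5258 and 5221 in the Control-PyMT pair against 3026 and 2262 scaled counts in the MYC-PyMT pair. Both MYC-PyMT libraries were far below the controls and differed from each other by 1.34-fold (log2 -1.0, SE 0.20, limma adjusted p = 0.00258). The Lig3 call held in each of the 15 alternatives, with log2 changes of -1.21 to -0.71. Xrcc1, the scaffold protein that holds the ligase, had 1209 and 1666 in the Control-PyMT pair against 2033 and 2180.3 scaled counts in the MYC-PyMT pair and was called higher by a small margin (log2 0.57, SE 0.21, limma adjusted p = 0.0472). That call was lost on omitting Control-PyMT replicate 1 (log2 0.34, adjusted p = 0.151), MYC-PyMT replicate 1 (log2 0.62, adjusted p = 0.121) or MYC-PyMT replicate 2 (log2 0.52, adjusted p = 0.218). With all libraries it was also lost without the level filter, with TMM scaling, with upper-quartile scaling, without the variance trend and by edgeR (adjusted p = 0.0550 to 0.116). Parp2, the relative of Parp1, had 1156 and 1057 in the Control-PyMT pair against 1462 and 1453 scaled counts in the MYC-PyMT pair and did not pass (log2 0.40, 95% interval -0.02 to 0.82, limma adjusted p = 0.107).

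Within a library, the log2 ratio of Lig3 to Xrcc1 was 2.12 and 1.65 in the controls against 0.57 and 0.05 in MYC-PyMT. The groups did not overlap, and the ratio differed by -1.57 between the group means, MYC-PyMT minus Control-PyMT. A ratio within a library does not depend on that library's size factor. Parp1 to Parp2 gave 1.32 and 1.45 in the controls against 2.29 and 2.16 in MYC-PyMT, again without overlap. Differences of these ratios between groups were not tested.

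Homologous recombination genes were called higher in 7 of 11 cases (against 23.3% of all genes tested), and the other 4 did not pass. In all 11 genes both MYC-PyMT libraries stood above both Control-PyMT libraries, where 37.0% of all genes tested did so. Brca1, whose product forms a ubiquitin ligase that steers broken ends towards recombination (ENSMUSG00000017146.12, chromosome 11, 101488764 to 101551955), had 677 and 503 in the Control-PyMT pair against 1189.5 and 992 scaled counts in the MYC-PyMT pair (log2 0.90, SE 0.23, limma adjusted p = 0.00948). Bard1, its partner in that ligase, rose from 192 and 198 to 391 and 392 scaled counts, with hardly any spread in either group (log2 1.00, SE 0.24, limma adjusted p = 0.00704). Brca2, a mediator of strand exchange (ENSMUSG00000041147.10, chromosome 5, 150522630 to 150570329), had 472 and 410.2 in the Control-PyMT pair against 908 and 703 scaled counts in the MYC-PyMT pair (log2 0.86, SE 0.23, limma adjusted p = 0.0117). Palb2, which links the products of Brca1 and Brca2, had 217 and 212 in the Control-PyMT pair against 385 and 365 scaled counts in the MYC-PyMT pair (log2 0.80, SE 0.24, limma adjusted p = 0.0202). The Brca1 call was lost on omitting Control-PyMT replicate 2 (log2 0.68, adjusted p = 0.0745) or MYC-PyMT replicate 1 (log2 0.77, adjusted p = 0.0692). The Brca2 call was lost on omitting either Control-PyMT library or MYC-PyMT replicate 1 (log2 0.67 to 0.96, adjusted p = 0.0537 to 0.130). The Palb2 call was lost on omitting any of the 4 libraries (log2 0.76 to 0.84, adjusted p = 0.0641 to 0.122).

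Rad54l, a motor protein that acts during strand exchange, showed the largest change of the recombination genes, from 428 and 405 to 907 and 996 scaled counts (log2 1.19, SE 0.21, limma adjusted p = 0.00132). Its paralog Rad54b had 194 and 175 in the Control-PyMT pair against 291 and 282 scaled counts in the MYC-PyMT pair and did not pass (log2 0.64, 95% interval 0.07 to 1.2, limma adjusted p = 0.0616). Within libraries the log2 ratio of Rad54l to Rad54b was 1.15 and 1.21 in the controls against 1.64 and 1.82 in MYC-PyMT. The 2 paralogs stood farther apart in both MYC-PyMT libraries.

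Rad51b, Rad51c, Rad51d, Xrcc2 and Xrcc3, whose products form small complexes that act in recombination, all had positive log2 changes, of which 2 passed. Rad51c, common to both complexes, had 199 and 174 in the Control-PyMT pair against 295 and 308 scaled counts in the MYC-PyMT pair (log2 0.69, SE 0.25, limma adjusted p = 0.0459) and lost its call on omitting any of the 4 libraries (log2 0.59 to 0.79, adjusted p = 0.0777 to 0.210). With all libraries it was also lost with a pseudocount of 5, without the level filter, with TMM scaling, with upper-quartile scaling, by edgeR and by DESeq2 (adjusted p of up to 0.0827). Xrcc2 had 435 and 332 in the Control-PyMT pair against 624 and 569 scaled counts in the MYC-PyMT pair (log2 0.65, SE 0.24, limma adjusted p = 0.0444) and lost its call on omitting Control-PyMT replicate 2 or either MYC-PyMT library (log2 0.45 to 0.71, adjusted p = 0.121 to 0.213). The same call was also lost with upper-quartile scaling, without the variance trend and by edgeR (adjusted p = 0.0562 to 0.0814). Rad51d had 907 and 826 in the Control-PyMT pair against 1152 and 1111 scaled counts in the MYC-PyMT pair (log2 0.39, 95% interval -0.05 to 0.82, limma adjusted p = 0.128). Both MYC-PyMT libraries were above the controls for each of these genes, where 37.0% of all genes tested did so. Xrcc3 had 361 and 398 in the Control-PyMT pair against 562 and 441 scaled counts in the MYC-PyMT pair (log2 0.39, 95% interval -0.14 to 0.92, limma adjusted p = 0.197). Rad51b was the lowest of all 48 genes, with 38 and 38 reads in the controls against 56 and 57 in MYC-PyMT. It did not pass (log2 0.79, 95% interval -0.01 to 1.59, limma adjusted p = 0.0940). Without the variance trend it passed (limma adjusted p = 0.0308). The other 47 genes had at least 100 reads in every library.

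In the Fanconi anaemia pathway 5 of 9 genes were called higher (against 23.3% of all genes tested) and 4 did not pass. The largest change was in Fancd2, which with Fanci forms the clamp that the core complex ubiquitinates at a stalled fork, from 215 and 193 to 629 and 556 scaled counts (log2 1.53, SE 0.24, limma adjusted p = 0.000625). Fanci rose from 255 and 265 to 532 and 401 scaled counts (log2 0.83, SE 0.25, limma adjusted p = 0.0203). The log2 ratio of Fancd2 to Fanci was -0.25 and -0.46 in the controls against 0.24 and 0.47 in MYC-PyMT, without overlap. Per kilobase of transcript, Fancd2 stood below Fanci in both controls (39.0 against 55.0, and 35.0 against 57.1). In MYC-PyMT replicate 1 they were nearly level (114.1 against 114.6), and in MYC-PyMT replicate 2 Fancd2 was higher (100.9 against 86.4). The Fanci call was lost on omitting either Control-PyMT library or MYC-PyMT replicate 1 (log2 0.62 to 0.85, adjusted p = 0.0913 to 0.206).

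Of the genes of the core complex and its anchor Fancm, 3 were called higher (against 23.3% of all genes tested) and 4 did not pass. Fancl, its ubiquitin ligase, had 430.2 and 307 in the Control-PyMT pair against 847 and 781 scaled counts in the MYC-PyMT pair (log2 1.16, SE 0.24, limma adjusted p = 0.00316). Fance, the subunit that contacts Fancd2, had 469 and 668 in the Control-PyMT pair against 1195 and 1244 scaled counts in the MYC-PyMT pair (log2 1.12, SE 0.23, limma adjusted p = 0.00297). In both genes the libraries of MYC-PyMT lay close together and clear of the controls. Fancb, another core subunit, had 256 and 201 in the Control-PyMT pair against 382 and 485 scaled counts in the MYC-PyMT pair (log2 0.92, SE 0.26, limma adjusted p = 0.0153). The Fancb call was lost on omitting either Control-PyMT library or MYC-PyMT replicate 2 (log2 0.75 to 1.09, adjusted p = 0.0503 to 0.132). By contrast Fancc, which binds Fance, had 761 and 565 in the Control-PyMT pair against 534 and 548 scaled counts in the MYC-PyMT pair, with both MYC-PyMT libraries below the controls but no call (log2 -0.28, 95% interval -0.79 to 0.24, limma adjusted p = 0.346). The log2 ratio of Fance to Fancc was -0.70 and 0.24 in the controls against 1.16 and 1.18 in MYC-PyMT, the largest shift of the 18 pairs examined in the upward direction. Fancg had 457 and 465 in the Control-PyMT pair against 585 and 519.8 scaled counts in the MYC-PyMT pair (log2 0.26, 95% interval -0.23 to 0.74, limma adjusted p = 0.354). Fanca had 233 and 308 in the Control-PyMT pair against 387 and 287 scaled counts in the MYC-PyMT pair, where the groups overlapped (log2 0.31, 95% interval -0.29 to 0.92, limma adjusted p = 0.367). The fork remodeller Fancm had 689 and 606 in the Control-PyMT pair against 886 and 737 scaled counts in the MYC-PyMT pair (log2 0.32, 95% interval -0.16 to 0.80, limma adjusted p = 0.239).

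All 3 genes of mismatch repair and resection were called higher (against 23.3% of all genes tested). Exo1, the exonuclease that removes the mismatched strand and also trims broken ends, rose from 501 and 435 to 1340.5 and 1236 scaled counts (log2 1.46, SE 0.21, limma adjusted p = 0.000379). Msh6, part of the complex that recognises mismatches, had 1271 and 1158 in the Control-PyMT pair against 1897 and 1743 scaled counts in the MYC-PyMT pair (log2 0.58, SE 0.19, limma adjusted p = 0.0273). Pms2, part of the nicking endonuclease, had 694 and 548 in the Control-PyMT pair against 921 and 979 scaled counts in the MYC-PyMT pair (log2 0.62, SE 0.21, limma adjusted p = 0.0362). The calls of Msh6 (log2 0.52 to 0.64, adjusted p = 0.0769 to 0.205) and of Pms2 (log2 0.45 to 0.67, adjusted p = 0.118 to 0.195) were both lost on omitting Control-PyMT replicate 2 or either MYC-PyMT library. With all libraries, Msh6 lost its call with upper-quartile scaling and without the variance trend (adjusted p = 0.0548 to 0.0709), and Pms2 with upper-quartile scaling and without the variance trend (adjusted p = 0.0695 to 0.0759).

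None of the 3 nucleotide excision repair genes was called, where 23.3% of all genes tested were called higher and 24.6% lower. None had an unadjusted p under 0.05 by limma, edgeR or DESeq2 with all libraries. Omitting Control-PyMT replicate 2 gave 1 such gene, Ercc2 (log2 0.46, adjusted p = 0.100). Xpc, which recognises bulky lesions, had 1229.8 and 1074 in the Control-PyMT pair against 1121 and 1151 scaled counts in the MYC-PyMT pair (log2 -0.02, 95% interval -0.45 to 0.42, limma adjusted p = 0.951). Ercc1, a subunit of a nuclease that cuts beside the lesion, had 449 and 467 in the Control-PyMT pair against 474 and 456 scaled counts in the MYC-PyMT pair (log2 0.02, 95% interval -0.47 to 0.51, limma adjusted p = 0.945). Ercc2, a helicase of the transcription factor TFIIH, had 1031 and 1766 in the Control-PyMT pair against 1367 and 1466 scaled counts in the MYC-PyMT pair (log2 0.07, 95% interval -0.50 to 0.64, limma adjusted p = 0.845). The control libraries of Ercc2 differed 1.71-fold, the widest gap of any repair gene within a group, and enclosed both MYC-PyMT values. The intervals still allow rises of up to 1.42-fold for Ercc1, 1.33-fold for Xpc and 1.56-fold for Ercc2.

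In end joining 4 of 6 genes were called higher (against 23.3% of all genes tested) and 2 did not pass. Xrcc6 and Xrcc5 encode the Ku heterodimer that caps broken ends. Xrcc6 rose from 2322 and 1900.0 to 3821 and 3724 scaled counts (log2 0.84, SE 0.19, limma adjusted p = 0.00471) and Xrcc5 from 1649 and 1268 to 2244 and 2234 scaled counts (log2 0.63, SE 0.20, limma adjusted p = 0.0255). Prkdc, the kinase that Ku recruits, had 471 and 417 in the Control-PyMT pair against 692 and 653 scaled counts in the MYC-PyMT pair (log2 0.60, SE 0.22, limma adjusted p = 0.0426). The 2 genes of the ligation step did not pass. Lig4 had 508 and 453 in the Control-PyMT pair against 441 and 454 scaled counts in the MYC-PyMT pair (log2 -0.10, 95% interval -0.59 to 0.39, limma adjusted p = 0.733). Its cofactor Xrcc4 had 590.1 and 446 in the Control-PyMT pair against 379 and 415 scaled counts in the MYC-PyMT pair, both MYC-PyMT values being below the controls (log2 -0.37, 95% interval -0.90 to 0.16, limma adjusted p = 0.227). Polq, the polymerase of the error-prone alternative route, rose from 282 and 289.6 to 648 and 752 scaled counts (log2 1.28, SE 0.22, limma adjusted p = 0.00128). The Xrcc5 call was lost on omitting Control-PyMT replicate 2 or either MYC-PyMT library (log2 0.44 to 0.63, adjusted p = 0.0857 to 0.119), and the Prkdc call on omitting any of the 4 libraries (log2 0.51 to 0.69, adjusted p = 0.0624 to 0.224). With all libraries, Xrcc5 lost its call without the variance trend (adjusted p = 0.0767), and Prkdc with upper-quartile scaling, without the variance trend and by edgeR (adjusted p = 0.0515 to 0.0818).

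Among break sensors and checkpoint kinases, 3 of 7 genes were called higher (against 23.3% of all genes tested). Chek1, the effector kinase of the replication checkpoint, showed the largest change of all 48 after Ung, from 528 and 424 to 1459 and 1408 scaled counts (log2 1.60, SE 0.21, limma adjusted p = 0.000260). Atr, the kinase that activates it, rose from 1175 and 1085 to 1928 and 2129 scaled counts (log2 0.84, SE 0.19, limma adjusted p = 0.00471), a call lost on omitting MYC-PyMT replicate 2 (log2 0.77, adjusted p = 0.0541). Atm and Chek2, the corresponding pair at broken ends, did not pass. Atm had 1378 and 1155 in the Control-PyMT pair against 1799 and 1424 scaled counts in the MYC-PyMT pair (log2 0.34, 95% interval -0.12 to 0.81, limma adjusted p = 0.198) and Chek2 had 1482 and 1243 in the Control-PyMT pair against 1924 and 1731 scaled counts in the MYC-PyMT pair (log2 0.43, 95% interval -0.01 to 0.86, limma adjusted p = 0.0952). Within libraries the log2 ratio of Chek1 to Atr was -1.15 and -1.36 in the controls against -0.40 and -0.60 in MYC-PyMT, without overlap, and that of Chek2 to Atm was 0.10 and 0.11 in the controls against 0.10 and 0.28 in MYC-PyMT, with overlap.

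Of the 3 genes of the complex that first binds broken ends, 1 was called higher (against 23.3% of all genes tested). Mre11a, its nuclease, had 1378 and 1082 in the Control-PyMT pair against 1962 and 2058 scaled counts in the MYC-PyMT pair (log2 0.72, SE 0.20, limma adjusted p = 0.0142), a call lost on omitting Control-PyMT replicate 2 or either MYC-PyMT library (log2 0.54 to 0.75, adjusted p = 0.0554 to 0.0923) and also without the variance trend (adjusted p = 0.0523). Nbn, which recruits Atm, had 903 and 734 in the Control-PyMT pair against 1122 and 1056 scaled counts in the MYC-PyMT pair (log2 0.42, 95% interval -0.04 to 0.88, limma adjusted p = 0.119). Rad50, its ATPase, had 2039.7 and 1791 in the Control-PyMT pair against 2052 and 1802 scaled counts in the MYC-PyMT pair, and the replicates of each group differed by more than the groups did (log2 0.01, 95% interval -0.41 to 0.43, limma adjusted p = 0.975). The log2 ratio of Rad50 to Mre11a was 0.57 and 0.73 in the controls against 0.06 and -0.19 in MYC-PyMT.

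The RecQ helicases went opposite ways. Blm, which dissolves recombination intermediates, rose from 541 and 371 to 1233 and 1333 scaled counts (log2 1.51, SE 0.24, limma adjusted p = 0.000665). Wrn, the helicase with an exonuclease domain that is lost in Werner syndrome, fell from 831 and 733 to 455 and 444 scaled counts (log2 -0.80, SE 0.21, limma adjusted p = 0.0118). The Wrn call was lost on omitting Control-PyMT replicate 1 or either MYC-PyMT library (log2 -0.81 to -0.70, adjusted p = 0.0545 to 0.0714), and also when each library's trend with transcript length was removed (log2 -0.49, adjusted p = 0.123).

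**Figure D2:**
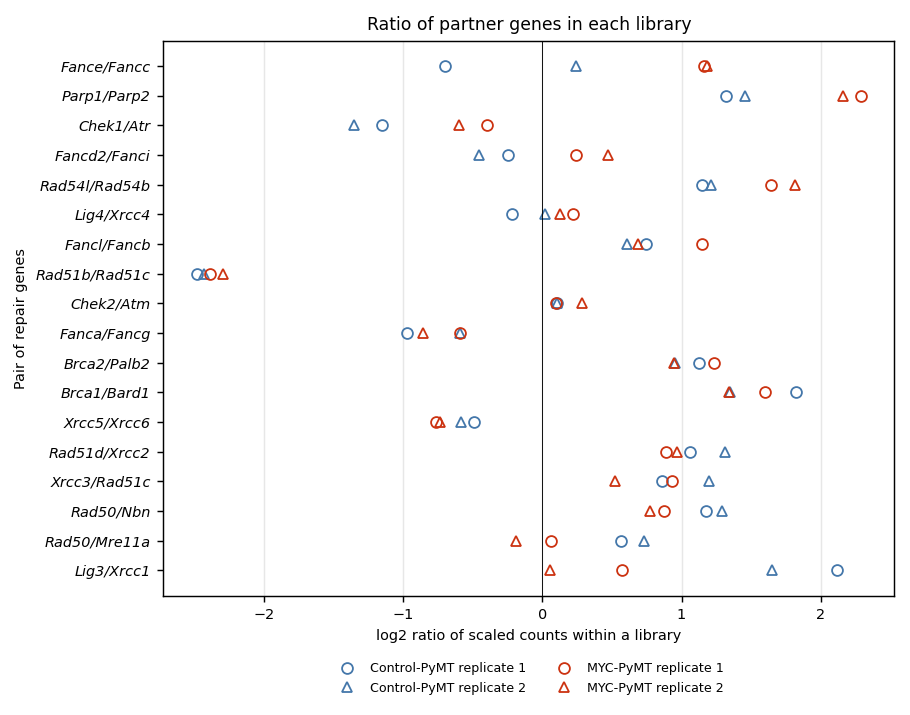
Log2 ratio of scaled counts of 18 pairs of repair genes whose products act together or are related (vertical axis), 1 point for each of the 4 libraries, blue for Control-PyMT and red for MYC-PyMT, ordered by the difference between group means. Fance/Fancc at the top and Lig3/Xrcc1 at the bottom shift most, while Brca1/Bard1 and Brca2/Palb2 overlap between groups.

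In several pairs the ratios of the groups overlapped. Brca1 to Bard1 gave log2 ratios of 1.82 and 1.35 in the controls against 1.60 and 1.34 in MYC-PyMT, and Brca2 to Palb2 1.12 and 0.95 in the controls against 1.24 and 0.95 in MYC-PyMT. Fanca to Fancg gave -0.97 and -0.59 in the controls against -0.59 and -0.86 in MYC-PyMT. In 12 of the 18 pairs the groups did not overlap, a description of these pairs only. No such share was computed for ratios of other genes. Of single genes tested, an unlike measure, 37.0% stood higher without overlap and 38.7% lower. Among the 12 was Xrcc5 to Xrcc6, where the shift was small (-0.49 and -0.58 in the controls against -0.77 and -0.74 in MYC-PyMT).

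Levels per kilobase of transcript spanned a wide range and kept much of their order. Spearman's rho between the group means was 0.91 over the 48 genes, a description across genes that share the same 4 libraries. Lig3 stood first in Control-PyMT and rank 11 in MYC-PyMT, with 879.5 ± 4.35 scaled counts per kilobase in Control-PyMT and 444 ± 90.7 in MYC-PyMT. Apex1 came first in MYC-PyMT, at 785 ± 36.7 scaled counts per kilobase in Control-PyMT and 1894 ± 70.4 in MYC-PyMT, followed by Parp1, at 746 ± 2.41 scaled counts per kilobase in Control-PyMT and 1763 ± 121 in MYC-PyMT. In MYC-PyMT the libraries of Apex1 and Parp1 overlapped, so that their order there lies within the spread. Ung moved from rank 21 to rank 4, at 199.8 ± 0.849 scaled counts per kilobase in Control-PyMT and 941 ± 44.6 in MYC-PyMT. At the low end Rad51b was last in both groups, at 15.5 ± 1.05 scaled counts per kilobase in Control-PyMT and 27.2 ± 2.03 in MYC-PyMT, and Prkdc, Bard1 and Polq lay close together in Control-PyMT at 35.1 ± 3.04, 34.4 ± 0.773 and 33.4 ± 0.596, which did not differ beyond their spread.

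**Figure D3:**
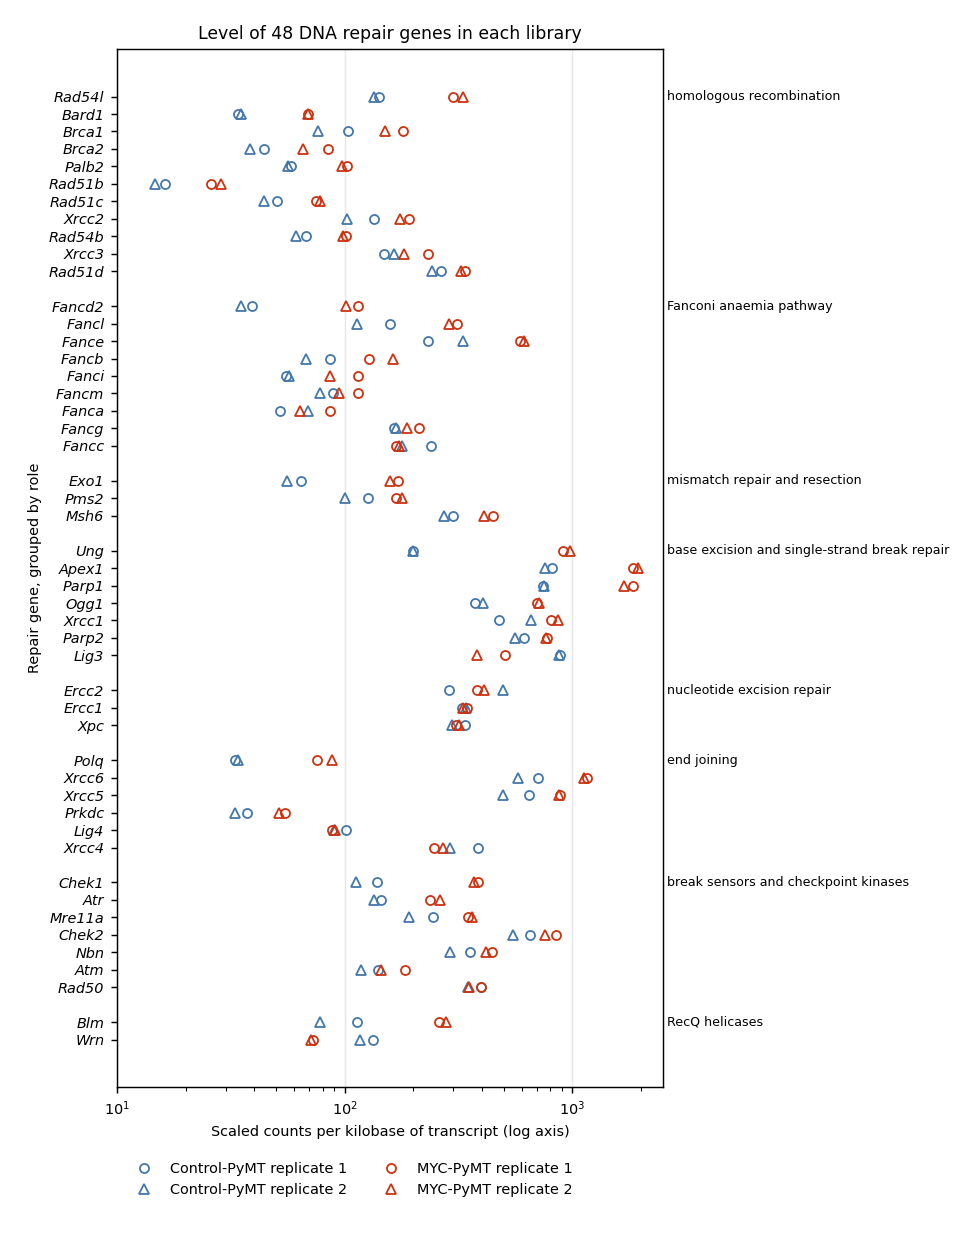
Scaled counts per kilobase of transcript (horizontal log axis) of each of the 48 repair genes in each of the 4 libraries, grouped by role (vertical axis). Circles and triangles are replicates 1 and 2, blue Control-PyMT and red MYC-PyMT. Red points lie to the right of blue points for most genes, with Lig3 and Wrn the called exceptions.

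A feature that the choice of genes did not use was position. Of the 48 repair genes, 18 (37.5%) start head to head with a protein-coding gene on the other strand, within 1000 bases and without overlap, in GENCODE release 21 on GRCm38. Among the 14461 protein-coding genes tested the share was 9.18%. The median log2 change of the neighbours was -0.15, against 0.61 for the 18 repair genes, and 3 were higher, 4 lower and 11 not called, near the 23.3% and 24.6% of all genes tested. Nbr1, an autophagy receptor gene whose start lies 194 bases from that of Brca1, fell (log2 -0.73, SE 0.20, limma adjusted p = 0.0126), a call lost on omitting either Control-PyMT library or MYC-PyMT replicate 2 (log2 -0.73 to -0.54, adjusted p = 0.0745 to 0.209). Mospd2, 217 bases from Fancb, also fell (log2 -0.90, SE 0.19, limma adjusted p = 0.00351), and Emc3, 30 bases from Fancd2, did not pass (log2 -0.05, SE 0.20, limma adjusted p = 0.856). The replication helicase gene Mcm4, 466 bases from Prkdc, rose (log2 1.32, SE 0.20, limma adjusted p = 0.000575). Lsm3, 40 bases from Xpc, rose (log2 1.71, SE 0.24, limma adjusted p = 0.000413) beside an Xpc value near 0. Purg, 798 bases from Wrn, fell as Wrn did (log2 -1.03, SE 0.29, limma adjusted p = 0.0142), a call lost on omitting either Control-PyMT library or MYC-PyMT replicate 1 (log2 -1.19 to -0.87, adjusted p = 0.0544 to 0.0983). Ccnb1ip1, 109 bases from Parp2, fell most of the 18 (log2 -2.91, SE 0.58, limma adjusted p = 0.00256).

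**Figure D4:**
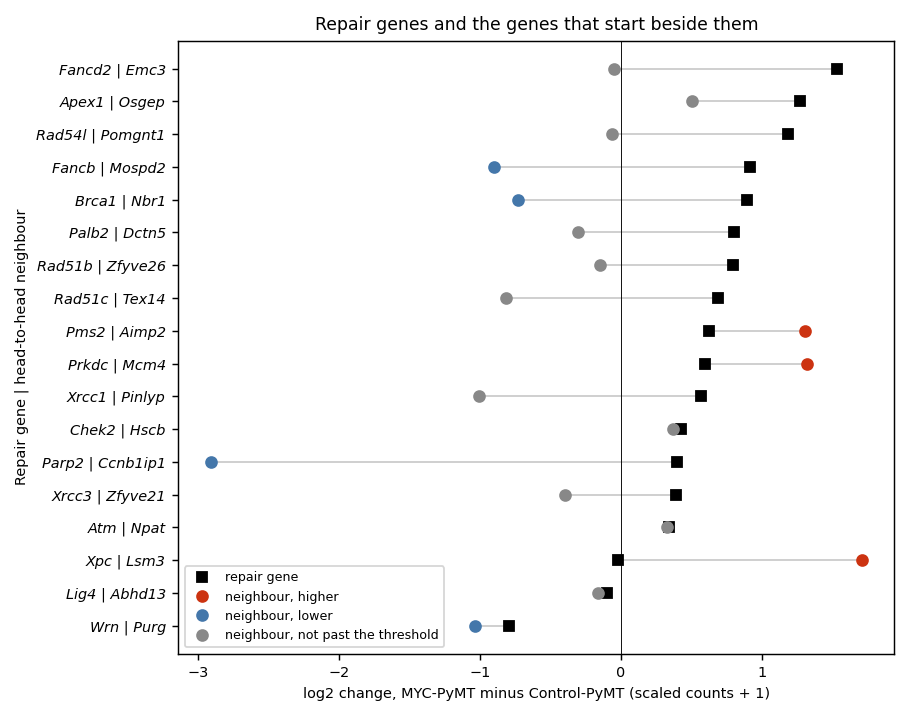
Log2 change (horizontal axis) of 18 repair genes (black squares) and of the gene that starts head to head with each (circles, coloured by call), with a grey line joining each pair. Circles lie on both sides of 0, with 3 called higher and 4 called lower.

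Some values could include reads of overlapping genes, because the strand setting of the counting is not given in the sources used here. Apex1 shares 61.7% of its annotated exon bases with Tmem55b on the other strand, which had 1074 and 1044 in the Control-PyMT pair against 1110.0 and 1103 scaled counts in the MYC-PyMT pair. Lig3 shares 25.1% with Rffl, which had 1169 and 1187 in the Control-PyMT pair against 1219.7 and 1124 scaled counts in the MYC-PyMT pair, nearly level between groups. Ercc2 shares 24.6% with Gm26852 and 17.8% with Klc3. Gm26852 had 87.0 and 147.8 in the Control-PyMT pair against 89.6 and 63.7 scaled counts in the MYC-PyMT pair, without a call. Klc3 fell (log2 -1.19, SE 0.25, limma adjusted p = 0.00350). It had 1662 and 2775 in the Control-PyMT pair against 969 and 919 scaled counts in the MYC-PyMT pair. In Control-PyMT, Klc3 and Ercc2 were both higher in replicate 2. Fancl shares 13.7% with Vrk2, which rose (log2 0.82, SE 0.27, limma adjusted p = 0.0324), a call lost on omitting Control-PyMT replicate 2 or either MYC-PyMT library (log2 0.49 to 0.83, adjusted p = 0.0755 to 0.147). Fanci shares 15.9% with Polg, Rad54l 15.4% with Lrrc41 and Fanca 10.5% with Zfp276, none of which passed. Ogg1 shares 10.6% with Camk1, which had 2903 and 2634 in the Control-PyMT pair against 1341 and 2032 scaled counts in the MYC-PyMT pair, a fall while Ogg1 rose (log2 -0.74, SE 0.23, limma adjusted p = 0.0214; lost on omitting either Control-PyMT library or MYC-PyMT replicate 1, log2 -0.81 to -0.44, adjusted p = 0.116 to 0.279). Rad54b shares 35.8% with Fsbp on the same strand, which had at most 33.1 scaled counts. The values of these genes are uncertain for this reason, and by how much was not tested. Smaller overlaps, and those with genes that have no deposited value, are not listed.

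A wider list of 59 other repair genes gave 28 higher, 3 lower and 28 not called. All genes tested gave 23.3% higher and 24.6% lower with all libraries, and fewer of each in every fit that omitted 1 library. The median log2 change of this wider list was 0.55. Without Control-PyMT replicate 2 it gave 16 higher and, by limma, 0 lower (3 had an unadjusted p under 0.05, and edgeR and DESeq2 on all libraries each called 3). Without MYC-PyMT replicate 2 it gave 14 higher and 1 lower, and without Control-PyMT replicate 1 it gave 1 lower. H2afx, the histone variant phosphorylated around breaks, rose from 627 and 772 to 3167 and 3367 scaled counts (log2 2.23, SE 0.20, limma adjusted p = 3.24e-05). Rad51ap1, which acts in recombination, rose from 575 and 481 to 1676 and 1870.4 scaled counts, and Faap24, a partner of Fancm, from 315 and 341 to 1169 and 1057 scaled counts.

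Proliferation genes were examined beside the repair genes. All 25 genes of a DNA replication and cell cycle list were called higher, with a median log2 change of 1.37, above the repair median of 0.64. Ccnb1, the mitotic cyclin, rose from 1437 and 1044 to 4532 and 4849.6 scaled counts, Ccna2, the cyclin of S phase, from 2849.6 and 2406 to 8779 and 8128 scaled counts and Cdt1, a replication licensing factor, from 180.5 and 316 to 1356 and 1556 scaled counts. The repair genes share no member with this list, and all lists here were chosen with earlier results of these data known. Of 20 target genes of p53, the transcription factor activated by DNA damage, 8 were higher, 3 lower and 9 not called (median 0.37). Of all genes tested, 23.3% were called higher and 24.6% lower. Gdf15, a stress-induced secreted factor, rose from 8.42 and 13.6 to 109.7 and 229 scaled counts (log2 3.77, SE 0.45, limma adjusted p = 0.000167), while Plk2, a kinase, fell from 4529 and 3437 to 966 and 1233 scaled counts (log2 -1.85, SE 0.21, limma adjusted p = 0.000133). Fas, a death receptor, also fell, from 596 and 496 to 182 and 160.4 scaled counts (log2 -1.66, SE 0.25, limma adjusted p = 0.000508).

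**Figure D5:**
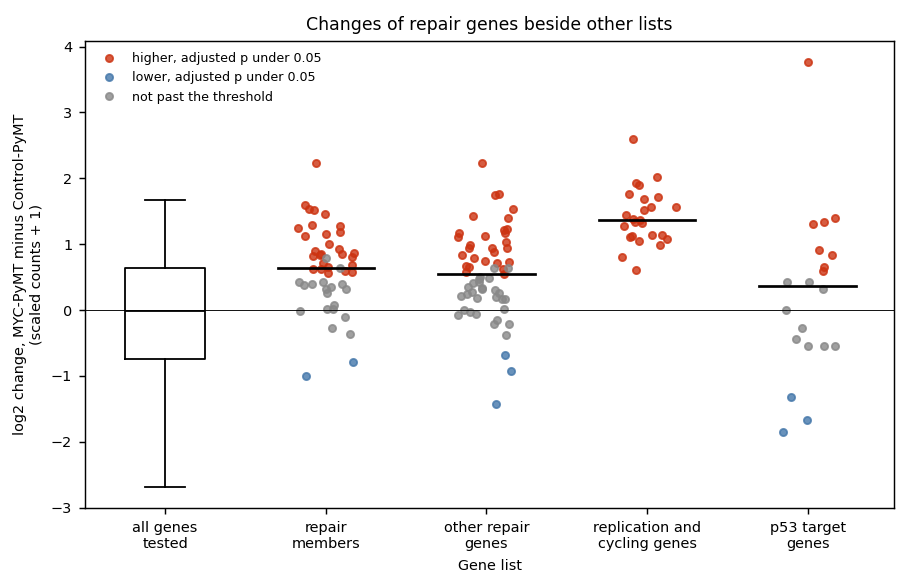
Log2 changes (vertical axis) of single genes in 4 lists (48 repair genes, 59 other repair genes, 25 replication and cycling genes, 20 p53 targets), coloured by call, with a line at each median, beside a box for all 16725 genes tested (box, middle 50%; whiskers, 5th to 95th percentile). All 25 replication and cycling genes lie above 0, whereas the other 3 lists extend below it.

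Libraries held 31783846 to 34190913 reads. Replicates differed in the repair genes. In Control-PyMT, replicate 1 was the higher in 35 of 48, against 55.7% of all genes tested, and 17 genes differed by over 1.2-fold, against 8 in MYC-PyMT. Over all genes tested the change fell with transcript length (Spearman's rho -0.24 across genes, which are not independent replicates), whereas over the 48 repair genes rho was 0.04. The labels give RNA integrity numbers of 3.3 to 9.6 without tying them to samples, so their part was not tested. The mouse Myc gene had 1832 and 2819.9 in the Control-PyMT pair against 3215 and 2815 scaled counts in the MYC-PyMT pair (log2 0.40, 95% interval -0.11 to 0.92, limma adjusted p = 0.172) and passed on omitting Control-PyMT replicate 2 (log2 0.72, adjusted p = 0.0452). S100a8 had 2338 and 639 in the Control-PyMT pair against 1564 and 2524 scaled counts in the MYC-PyMT pair (log2 0.70, SE 0.49, limma adjusted p = 0.260), and was called on omitting Control-PyMT replicate 1 (log2 1.64, adjusted p = 0.0374) or MYC-PyMT replicate 1 (log2 1.05, adjusted p = 0.00547). S100a9 had 564 and 205 in the Control-PyMT pair against 886 and 1169 scaled counts in the MYC-PyMT pair (log2 1.58, SE 0.40, limma adjusted p = 0.00925), a call lost on omitting Control-PyMT replicate 2 (log2 0.85, adjusted p = 0.0719). It was also lost with the length trend removed (log2 0.93, adjusted p = 0.0505) and without the variance trend (log2 1.58, adjusted p = 0.0536). The species of the MYC transgene is not given in the sources used here.

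Marker levels of cell types, summed over 5 genes each, also moved. These sums are not divided by transcript length, so the lists are not ranked. In scaled counts, luminal epithelial markers summed to 110721 to 115287 in the controls against 87053 to 88927 in MYC-PyMT, with no marker at 0. Of 5 genes tested, 0 were higher and 2 lower. Leukocyte markers summed to 4774 to 4961 in the controls against 3108 to 3607 in MYC-PyMT (0 higher and 2 lower of 5 genes tested). T cell markers summed to 222 to 264 in the controls against 143 to 152 in MYC-PyMT (1 higher and 4 lower of 5 genes tested), and B cell markers to 84.2 to 123 in the controls against 37.4 to 72.5 in MYC-PyMT (0 higher and 1 lower of 4 genes tested). Neutrophil markers summed to 1030.3 to 3157 in the controls against 2663 to 3869 in MYC-PyMT (2 higher and 0 lower of 5 genes tested), with overlap between groups, and endothelial markers to 1882 to 2418 in the controls against 3028 to 3427 in MYC-PyMT (2 higher and 0 lower of 5 genes tested). Myoepithelial markers summed to 32643 to 32774 in the controls against 11087 to 24749 in MYC-PyMT (1 higher and 2 lower of 5 genes tested). Adipocyte markers summed to 658 to 2094 in the controls against 2919.9 to 3444 in MYC-PyMT (1 higher and 1 lower of 5 genes tested), and keratinocyte markers to 944 to 1962 in the controls against 119 to 152 in MYC-PyMT (0 higher and 4 lower of 4 genes tested), where Krt25 had no read in MYC-PyMT. Macrophage markers summed to 8147 to 9414 in the controls against 7882 to 8871 in MYC-PyMT (1 higher and 1 lower of 5 genes tested). Fibroblast markers summed to 14379.6 to 23014 in the controls against 16798 to 22196 in MYC-PyMT (1 higher and 2 lower of 5 genes tested). Both of these lists overlapped between groups. The part of cell composition in the changes of repair genes was not tested.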

How the data were processed

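Poly(A)-selected RNA from 4 bulk mammary tumour samples was sequenced with a stranded kit, per the labels' protocols. HISAT2, DESeq2 and the build mm10 (GRCm38.p5) are named in the submitters' processing notes; the counter, strand setting and annotation release were not stated in them. The authors deposited scaled counts per gene, a signal that is not divided by gene length. Every deposited value was a whole multiple of 1 step per column within 0.001 reads (100% of values in each of the 4 columns), so whole reads were recovered.

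The main test was limma 3.58.1 with a variance trend on log2(scaled count + 1), two-sided, over 16725 genes with at least 10 scaled counts in at least 2 libraries, adjusted by Benjamini-Hochberg with a threshold of 0.05. All 48 members, Myc, S100a8, S100a9 and the 3 genes of smallest p of each other list were named; genes beside or overlapping a member were chosen after their values were seen. Members and lists were chosen with earlier results of these data known. Coordinates and lengths (the longest basic protein-coding transcript) came from GENCODE mouse release 21, which held 20463 of the 20555 gene IDs. The procedure was run on simulated counts with few changed genes and the same dispersion for every gene. These data differ in both, so their error rate was not tested. Alternatives were other pseudocounts, filters and scalings, no variance trend, a replicate block, leaving out each library, removing the length trend (lowess), and edgeR 4.0.16 and DESeq2 1.42.0 on recovered reads, in R 4.3.3.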

Additional observations from a re-analysis of the deposited data

How the results depend on the processing

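Across 15 alternatives, 14 of the 28 higher calls and the Lig3 call held in each one, while 10 of the 18 genes without a call kept the sign of their change and passed in none. Leaving out 1 library gave 5236 to 6480 changed genes in all, 16 to 21 repair genes higher, 1 to 2 lower and a median change of 0.55 to 0.79, with 14 to 24 other repair genes higher and 0 to 3 lower. The median change of the repair genes was 0.61 under TMM, 0.53 under upper-quartile scaling, 0.61 by edgeR and 0.77 with the length trend removed, where 30 were higher (Atm and Fancm were added) and 1 lower. Upper-quartile scaling moved the median of all genes to -0.13, and the repair median relative to it was 0.66, against 0.66 with the scaling of the authors. Higher repair genes numbered 24 by edgeR, 27 by DESeq2 and 22 under upper-quartile scaling or without the variance trend. With the replicate block they numbered 24, losing Prkdc, Rad51c, Xrcc1 and Xrcc2; same-numbered libraries did not deviate together (correlation -0.09), so the numbers were not taken as pairs. Genes near 0 changed sign: Ercc1 (-0.011 with TMM scaling, -0.093 with upper-quartile scaling, -0.23 with the length trend removed, -0.012 with edgeR, -0.0068 to 0.051 when a library was omitted), Ercc2 (-0.046 with upper-quartile scaling, -0.024 with edgeR, -0.32 to 0.46 when a library was omitted), Xpc (0.076 with the length trend removed, -0.11 to 0.080 when a library was omitted), Lig4 (0.12 with the length trend removed, -0.18 to -0.017 when a library was omitted) and Rad50 (-0.024 with TMM scaling, -0.11 with upper-quartile scaling, -0.023 with edgeR, -0.085 to 0.10 when a library was omitted); S100a8 was -0.23 to 1.64 when a library was omitted and passed with the replicate block (adjusted p = 0.0364). For these changes of sign or call the cause was not tested. Intervals and read depth cover counting and replicate spread of 2 libraries only.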
